A study of Mus musculus with 12 samples.

Results

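The genes described here are 39 members of the machinery of autophagy, mitophagy and the lysosome, chosen by name out of the 55416 genes in the deposited tables. They comprise 11 genes that start the process, 7 of the enzyme system that attaches LC3 to membrane, 5 of the LC3 and GABARAP family, 7 cargo receptors and 9 lysosomal genes. The gastrocnemius (the large muscle of the calf) and the hypothalamus were each taken from 6 male mice of strain BALB/c for RNA sequencing. In 3 of them, labelled cachectic, the murine colon carcinoma line CT-26 had been placed under the abdominal skin at 7 weeks of age, and tissue was taken on day 25. The other 3 mice were healthy controls of the same strain, sex and age label, and their day of collection is not given in the labels. The labels name no transgene, deletion or drug in either group. The 12 libraries form 4 groups of 3, replicates within a group were separate mice, and both tissues came from the same numbered mice. The labels name 1 tumour line, so the CT-26 groups show the response to that line.

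Autophagy encloses cytoplasm in a double membrane, the autophagosome, which fuses with the lysosome, where acid hydrolases break the contents down. A kinase complex around ULK1 and ULK2 and a lipid kinase complex around PIK3C3 start the membrane. Enzymes named ATG then attach LC3 and GABARAP proteins to it, and receptors such as SQSTM1 or BNIP3 tie proteins or mitochondria to those LC3 proteins. In skeletal muscle the pathway is known for its part in protein loss during fasting, denervation and wasting, and in neurons for the removal of aggregates and worn organelles.

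One known feature of many lysosomal genes is a palindromic sequence that the transcription factor TFEB binds, the CLEAR element, which has the E-box CACGTG at its centre. RefSeq promoter windows on GRCm38.p6, from 250 bases before to 50 after a start site, were matched for 31 of the 39 members, giving 36 windows. Members without a window were Bnip3l, Ctsb, Atg16l1, Atg12, Map1lc3a, Becn1, Pik3c3 and Rb1cc1. The sequences below show the sites in 3 genes that were higher in CT-26 muscle (Lamp1, Ctsd and Bnip3), and in Atg3 and Atg5, which were not called there. Each is written 5′ to 3′ on the gene's own strand, and capitals mark the E-box with any flanking bases that match TCACGTGA or GTCACGTG. The Lamp1 stretch is the 150 bases just before its start (chr8:13159011-13159160, plus strand). The others are 30 bases around a site: Ctsd at chr7:142387908-142387937 on the minus strand, Bnip3 at chr7:138909596-138909625 on the minus strand, Atg3 at chr16:45158746-45158775 on the plus strand, and Atg5 at chr10:44268314-44268343 on the plus strand.
Lamp1: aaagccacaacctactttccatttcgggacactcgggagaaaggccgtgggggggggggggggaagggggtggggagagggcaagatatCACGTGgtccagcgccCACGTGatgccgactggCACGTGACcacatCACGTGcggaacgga
Ctsd: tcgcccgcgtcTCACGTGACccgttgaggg
Bnip3: cgcacgcgccgCACGTGccacacgctcccc
Atg3: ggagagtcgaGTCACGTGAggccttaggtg
Atg5: ggagcgcttgcCACGTGgtcttggtgacgt

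Searched on both strands, CACGTG was found in 9 of the 36 member windows (25.0%), against 7.15% of all 32851 windows and 9.76% of the 13315 windows of genes tested in the gastrocnemius. The longer GTCACGTG, which contains it, was in 6 member windows (16.7%) against 2.25% and 3.98%. TCACGTGA, which also contains it, was in 3 (8.33%) against 0.974% and 1.81%. The members with CACGTG were Atg14, Atg3, Atg5, Atg7, Bnip3, Ctsa, Ctsd, Ctsl and Lamp1. Of the 16 members with a window that rose in CT-26 muscle, 6 held it, as did 3 of the 12 that were not called and 0 of the 3 that fell. The window of Atg7 lies 27999 bases inside the edge of its GENCODE gene, so it belongs to a start other than the outermost one. GTAAACA, the letters of the forkhead (FOXO) element, was in 0 of the 36 windows. All windows gave 3.65%, and those of genes tested in the gastrocnemius 2.59%. TGACNNNGC, the letters of the antioxidant response element, was in 4 (11.1%) against 12.4% and 14.3%. These matches are descriptions of the letters and say nothing of binding. Since CLEAR is a known feature of lysosomal genes, its higher share in a list that includes such genes is not an independent result.

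All 39 genes passed the low-count filter in both tissues, with library totals of 26015741 to 42771331 expected counts in the gastrocnemius and 27195316 to 52535761 in the hypothalamus. Levels are given below as CPM, counts scaled to library size after TMM, which sets the typical gene equal between libraries, or as TPM, which also divides by transcript length. Differences are log2 fold changes, CT-26 minus control, with their standard error (SE), and a gene was called at an edgeR adjusted p below 0.05. Among the fixed marker genes in the gastrocnemius, muscle fibre genes summed to 54260 to 69260 CPM in CT-26 and 80400 to 99080 CPM in control libraries. The 10 macrophage markers summed to 57.03 to 181.3 CPM against 73.17 to 88.73 CPM, and the 7 neutrophil markers to 20.59 to 140.2 CPM against 0.5112 to 0.924 CPM. The fibroblast markers summed to 310 to 404.9 CPM against 697.6 to 1113 CPM. In the hypothalamus the neuron markers overlapped, at 2504 to 2546 CPM against 2374 to 2727 CPM. Macrophage and microglia markers summed to 126.9 to 152.2 CPM against 113.5 to 122.4 CPM there, with 3 of 10 called higher and 7 not called. Hypothalamic neutrophil markers summed to 12.75 to 95.4 CPM against 4.372 to 5.664 CPM, with 5 of the 6 tested called higher. Oligodendrocyte markers summed to 824.7 to 883.7 CPM against 986.7 to 1088 CPM. No gene of these lists was at 0 in every library, and the part of these shifts in the results below was not tested. In such bulk samples, fewer cells of a type and less RNA per cell cannot be told apart.

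The first comparison asked how the pathway differed between muscle of tumour-bearing and control mice. In the gastrocnemius, 19 of the 39 members rose, 4 fell and 16 were not called. The risers were led by the protease Ctsl, the mitophagy receptors Bnip3 and Bnip3l, Map1lc3b and Sqstm1, and 10 called members changed at least 2-fold. Over all 14265 genes tested, 19.6% were called higher and 18.3% lower, against 48.7% and 10.3% of the members. The median log2 fold change of the members was 0.41, against -0.002 for all genes. For 27 members (69.2%) the CT-26 and control CPM values did not overlap, where 51.7% of all genes showed this. These counts describe a list chosen with earlier results of these data known, and no set test was made.

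**Figure D1:**
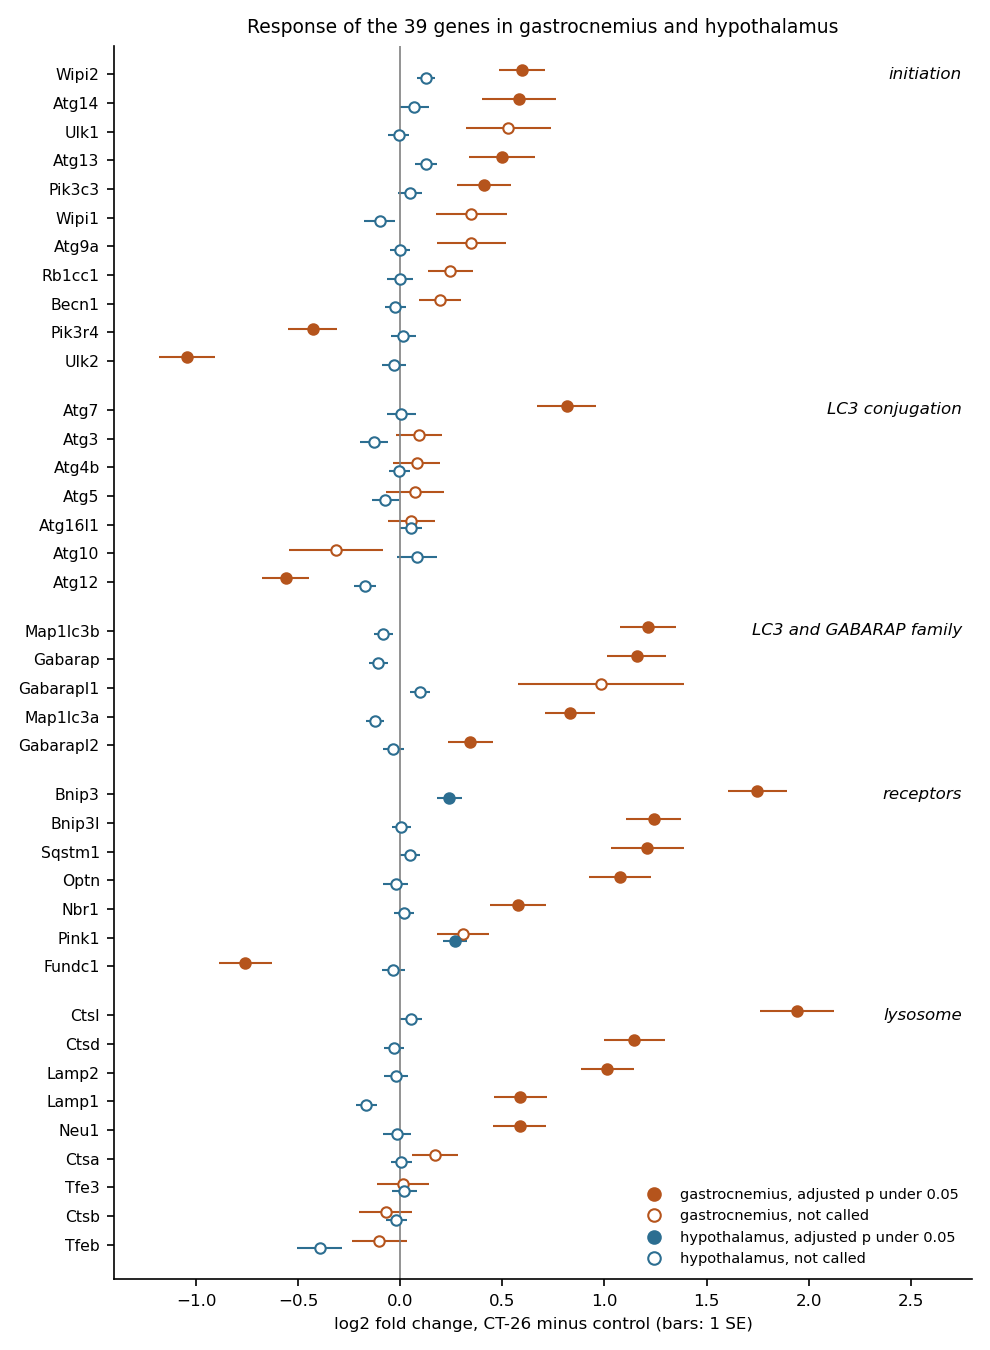
Log2 fold change (x axis, CT-26 minus control) of the 39 genes, grouped by role, in gastrocnemius (orange) and hypothalamus (blue), with bars of 1 SE and filled points for adjusted p under 0.05. Gastrocnemius values run from -1.04 for Ulk2 to 1.94 for Ctsl, while hypothalamic values lie between -0.39 and 0.27.

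The initiation genes were mixed: 4 of 11 rose, 2 fell and 5 were not called. The steepest change was in Ulk2, the kinase that works beside ULK1 (chr11:61775649-61855073, minus strand, GRCm38 as for all gene positions). Its CPM was 50.61, 50.64 and 60.07 in CT-26 mice 1, 2 and 3, and 113.9, 121.1 and 97.84 in control mice 1, 2 and 3. All 3 CT-26 libraries lay below every control library, and the log2 fold change was -1.04 ± 0.14 (SE, edgeR adjusted p = 0.000994). Its partner Ulk1, named after its values were seen, had 131.3, 108.6 and 76.18 CPM in CT-26 mice and 60.61, 83.6 and 74.7 CPM in controls. CT-26 mouse 3 lay within the control range, and the difference of 0.53 ± 0.21 missed the threshold (edgeR adjusted p = 0.0786), which Ulk1 passed when that library was left out (0.016). The paralogous kinases thus had estimates of opposite sign, of which the fall in Ulk2 passed the test.

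Wipi2, which reads the lipid PI3P on the growing membrane and brings in the LC3 conjugation complex (chr5:142627698-142670588, plus strand), rose. It had 45.45, 46.73 and 39.96 CPM in CT-26 mice against 29.1, 28.99 and 29.28 CPM in controls. The control libraries were within 1 CPM of each other and all CT-26 libraries lay above them (0.60 ± 0.11, adjusted p = 0.00454). Atg14, the subunit that sends the PIK3C3 lipid kinase to the site of autophagosome formation, had 10.31, 7.976 and 8.786 CPM in CT-26 mice and 5.623, 7.367 and 5.153 CPM in controls. It rose by 0.58 ± 0.18 (adjusted p = 0.0339), a call lost when any one of CT-26 mouse 1, CT-26 mouse 3, control mouse 1 or control mouse 3 was left out (edgeR adjusted p from 0.0538 to 0.118).

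The other subunits of that lipid kinase did not move as a block. Pik3c3, the catalytic subunit, rose by 0.41 ± 0.13 (adjusted p = 0.0411), and Atg13, the adaptor of the ULK1 complex, by 0.50 ± 0.16 (adjusted p = 0.0410). Both calls were lost when any of 5 of the 6 libraries was left out, and that of Pik3c3 also with DESeq2 (adjusted p = 0.0527), without a filter (0.0575) and with the replicate block (0.0627). Pik3r4, the regulatory subunit, fell on the CPM scale, from 11.25, 10.41 and 11.16 CPM in controls to 8.323, 8.131 and 7.92 CPM in CT-26 mice (-0.43 ± 0.12, adjusted p = 0.0227). On the TPM scale the sign of its difference turned, with a log2 fold change of 0.02. When any one of the 3 control mice was left out it was not called. Becn1, a core subunit of the same complex, had 51.91, 53.43 and 52.66 CPM in CT-26 mice and 47.43, 45.52 and 45.1 CPM in controls. The groups did not overlap, but the difference was small and not called (0.20 ± 0.10, adjusted p = 0.167). Atg9a, the membrane protein that seeds the phagophore, had 196.4, 220.7 and 150 CPM against 140.8, 166.1 and 138.7 CPM, with overlapping groups (0.35 ± 0.17, adjusted p = 0.135). Rb1cc1, the scaffold of the ULK1 complex, and Wipi1, a relative of Wipi2, were not called either, at 0.25 and 0.35.

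Among the 7 conjugation genes, 1 rose, 1 fell and 5 were not called, which made this the role with the smallest median difference (0.07). Atg7, the E1-like enzyme that activates both LC3 and ATG12 (chr6:114643097-114860614, plus strand), had 19.48, 16.34 and 15 CPM in CT-26 mice and 10.81, 9.163 and 8.956 CPM in controls. The groups were well apart and the gene rose by 0.82 ± 0.15 (adjusted p = 0.00373). Atg12, the ubiquitin-like protein that ATG7 activates, moved the other way, with 14.61, 14.6 and 13.78 CPM in CT-26 mice and 19.72, 23.31 and 20.4 CPM in controls. It fell by 0.56 on the log2 scale (SE 0.12, adjusted p = 0.00686). With TPM its difference was -0.16 and it was not called. Atg3, the E2-like enzyme that hands LC3 to its lipid, had 21.13, 23.11 and 20.62 CPM against 19.1, 20.89 and 20.86 CPM (0.09 ± 0.11, adjusted p = 0.543). Atg4b, the protease that trims LC3, had 18.13, 17.31 and 17.6 CPM against 15.59, 16.13 and 18.48 CPM (0.08 ± 0.12, adjusted p = 0.613). Both overlapped between groups. Atg5, Atg16l1 and Atg10, which build or form the ATG12 conjugate, had differences of 0.07, 0.06 and -0.31, none of them called.

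The LC3 and GABARAP family, the proteins that coat the autophagosome, had 4 of 5 members higher and 0 lower. Map1lc3b, whose protein is the usual laboratory marker of autophagosomes (chr8:121590361-121598760, plus strand), had 320.2, 373.8 and 319.1 CPM in CT-26 mice. Controls had 132.6, 155.4 and 148.6 CPM. Every CT-26 library held more than 2 times the CPM of any control library, and its log2 fold change was 1.21 ± 0.14 (adjusted p = 0.000605). Gabarap (chr11:69991143-69994951, plus strand) went from 129.2, 133.8 and 149.6 CPM in controls to 276.1, 294 and 350.4 CPM in CT-26 mice (1.16 ± 0.14, adjusted p = 0.00083). Map1lc3a (chr2:155276297-155278073, plus strand), a second LC3 form, had 180.3, 176.9 and 196.4 CPM against 95.56, 103.4 and 111.8 CPM (0.83 ± 0.12, adjusted p = 0.00165). Both lay above their controls in every CT-26 library. Gabarapl2 rose least, by 0.34 ± 0.11 (adjusted p = 0.0404), and its call was lost when any 1 library was left out.

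Gabarapl1, a GABARAP relative, had the largest SE of the 39 genes in muscle. Its CPM was 86.74, 28.85 and 69.93 in CT-26 mice 1, 2 and 3 and 20.52, 28.11 and 45.21 in controls. CT-26 mouse 2 sat within the control range while the other 2 lay above it, and the difference of 0.99 ± 0.41 missed the threshold (edgeR adjusted p = 0.0879). With that library left out it was 1.31 (adjusted p = 0.00961), and DESeq2 called it at 0.98 (adjusted p = 0.0252). Summed over the family, TPM was 1140, 919.9 and 1083 in CT-26 libraries and 390.8, 385.1 and 384.2 in control libraries. Within that sum, Map1lc3b took 22.1 to 24.8% in CT-26 muscle and 16.4 to 18.9% in control muscle, and Gabarapl2 took 6.42 to 7.47% against 10.4 to 11.9%. Such shares are taken within a library, so they do not depend on the scaling between libraries. They do depend on the transcript length by which TPM divides. For Map1lc3b that estimate was shorter in CT-26 muscle (mean 1877.6 bases against 2197.1 in control muscle), which raises its share there.

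**Figure D2:**
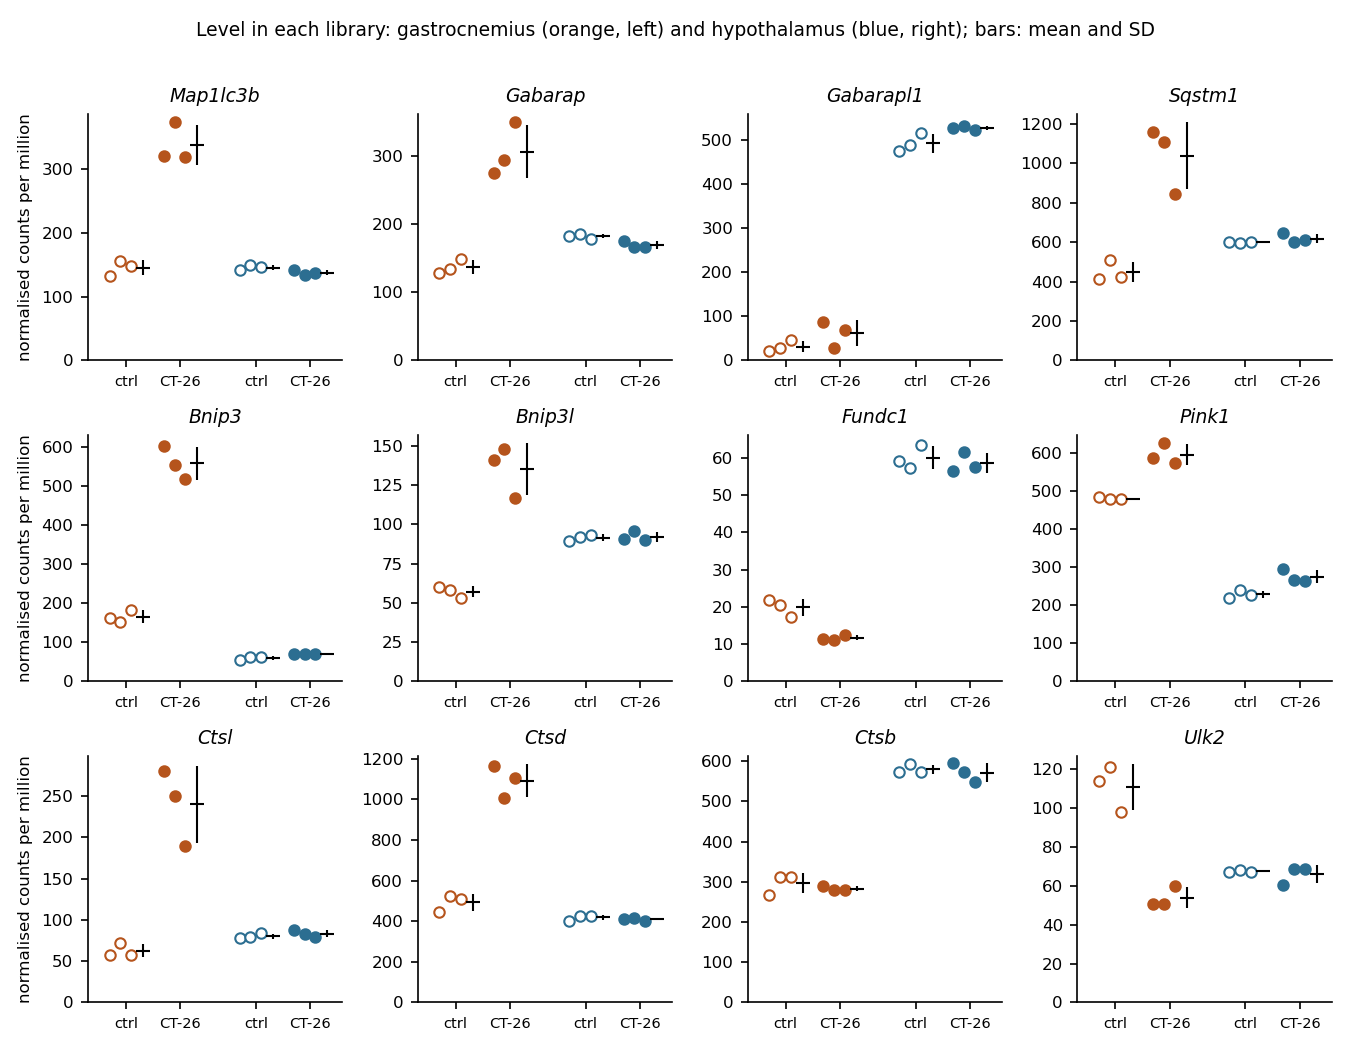
TMM-scaled CPM (y axis, from 0) of 12 members in each library, control (open) and CT-26 (filled), gastrocnemius in orange on the left and hypothalamus in blue on the right of each panel, with mean and SD beside the points. Bnip3 lies at 517.4 to 601.5 CPM in CT-26 muscle against 151.3 to 183.8 in control muscle, while its hypothalamic values run from 54.16 to 71; Gabarapl1 shows the reverse order of tissues.

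The receptors showed 5 of 7 members higher, 1 lower and 1 not called. Bnip3, a protein of the outer mitochondrial membrane that binds LC3 and is known as a hypoxia and FOXO target (chr7:138890836-138909519, minus strand), had 601.5, 553.7 and 517.4 CPM in CT-26 mice. Control mice had 162.7, 151.3 and 183.8 CPM. The lowest CT-26 library was more than 2 times the highest control library, and the log2 fold change was 1.75 ± 0.14 (adjusted p = 0.000228). Its relative Bnip3l, also called NIX (chr14:66985239-67008877, minus strand), had 140.8, 148.3 and 116.8 CPM against 60.03, 58.38 and 53.27 CPM (1.24 ± 0.13, adjusted p = 0.000522). Bnip3l is also known for clearing mitochondria from maturing red cells, and the 4 erythroid markers rose in the same libraries, with sums of 801.4 to 839.4 CPM against 196.4 to 429.4 CPM. In the hypothalamus those 4 markers rose as well (556.6 to 697.8 CPM against 240.3 to 381.2 CPM). Their part in the values of Bnip3l was not tested. A copy named Bnip3l-ps exists in the annotation, and how reads were shared with it is not known here. Fundc1, the third mitophagy receptor of that membrane (chrX:17556564-17572325, minus strand), went down, with 11.48, 11.15 and 12.52 CPM in CT-26 mice and 21.76, 20.41 and 17.34 CPM in controls. It fell by 0.76 on the log2 scale (SE 0.13, adjusted p = 0.00301). With TPM the difference was -0.36 and not called.

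Pink1, the kinase that marks damaged mitochondria for removal (chr4:138313409-138326307, minus strand), had 586, 624.9 and 571.9 CPM in CT-26 muscle and 482.8, 479.1 and 477.9 CPM in control muscle. The groups did not overlap, yet at 0.31 ± 0.13 it missed the threshold (edgeR adjusted p = 0.0918, DESeq2 adjusted p = 0.0337). Of the summed TPM of these 4 mitophagy genes, Bnip3 took 50.2 to 53.6% in CT-26 muscle and 30.4 to 32.7% in control muscle. Pink1 took 33.7 to 38.3% against 56.7 to 58.2%, and Fundc1 0.761 to 0.959% against 2.44 to 3.09%. The transcript makeup of the group thus differed between conditions, with Bnip3 ahead of Pink1 in each CT-26 library and behind it in each control library.

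Sqstm1, the receptor for ubiquitin-tagged cargo also called p62 (chr11:50199366-50210827, minus strand), had 1158, 1110 and 842.9 CPM in CT-26 mice and 415.2, 508.9 and 421.5 CPM in controls (1.21 ± 0.18, adjusted p = 0.00168). It was among the most abundant of the 39 in muscle, at 733.2 ± 188.5 TPM in CT-26 and 237.3 ± 30.88 TPM in control libraries (SD, n = 3). Other ubiquitin-binding receptors rose with it: Optn, from 64.85, 70.74 and 76.59 CPM to 171.1, 123.2 and 152.4 CPM (1.07 ± 0.15, adjusted p = 0.00139), and Nbr1 by 0.58 ± 0.14 (adjusted p = 0.0117). When control mouse 1 was left out, Nbr1 missed the threshold (adjusted p = 0.0599).

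Of the 9 lysosomal genes, 5 rose, 0 fell and 4 were not called. Ctsl, a cysteine protease long known as a gene of muscle atrophy (chr13:64359337-64370890, minus strand), had the largest rise of the 39. Its CPM was 281, 249.7 and 189.8 in CT-26 mice and 58.06, 71.69 and 57.64 in controls. All CT-26 libraries lay far above the controls, though they differed among themselves, and the log2 fold change was 1.94 ± 0.18 (adjusted p = 0.000321). Ctsd, the main aspartic protease of the lysosome (chr7:142375911-142388038, minus strand), had 1166, 1007 and 1105 CPM against 446, 522.5 and 511.6 CPM (1.15 ± 0.15, adjusted p = 0.00101). Lamp2, a membrane protein needed for fusion and for chaperone-mediated autophagy (chrX:38401357-38456454, minus strand), had 175.1, 151.3 and 139.4 CPM against 80.41, 77.92 and 72.18 CPM (1.02 ± 0.13, adjusted p = 0.00096). Its companion Lamp1 rose by 0.59 ± 0.13 (adjusted p = 0.00923), and Neu1, the lysosomal sialidase, by 0.58 ± 0.13 (adjusted p = 0.009).

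The cathepsins did not rise together. Ctsb, another cysteine protease (chr14:63122462-63145923, plus strand), had 289.5, 279.5 and 278.9 CPM in CT-26 muscle and 268.2, 311.9 and 311.3 CPM in control muscle, with overlapping groups (-0.07 ± 0.13, adjusted p = 0.680). Ctsa, the carboxypeptidase that protects NEU1, had 78.4, 80.53 and 74.83 CPM against 63.46, 70.85 and 73.49 CPM, narrowly apart (0.17 ± 0.11, adjusted p = 0.269). Within the summed TPM of the 4 cathepsins, Ctsb held 7.03 to 7.55% in CT-26 and 15.4 to 16.6% in control muscle, while Ctsl held 17.9 to 28.2% against 11.7 to 15.5%. Fdft1, which lies on the opposite strand, shares exon sequence with Ctsb and reached 59.4% of its CPM in 1 muscle library. The shared bases are 12.8% of the exon bases of Ctsb. The counting strand is not given, so reads from shared bases cannot be told apart here. The same holds for Ctsa, where Neurl2 reached 24.4% and Pltp 21.9% of its CPM in muscle and Pltp 93.9% in the hypothalamus. Map1lc3b shares only 58 exon bases (0.8% of its own) with Zcchc14. The whole-gene CPM of Zcchc14 reached 13.8% of that of Map1lc3b in muscle and 50.5% in the hypothalamus. The transcription factors Tfeb and Tfe3, which switch on lysosomal genes, were not called, with differences of -0.10 ± 0.13 and 0.02 ± 0.13. Their mRNA level does not report where the proteins sit in the cell.

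**Figure D3:**
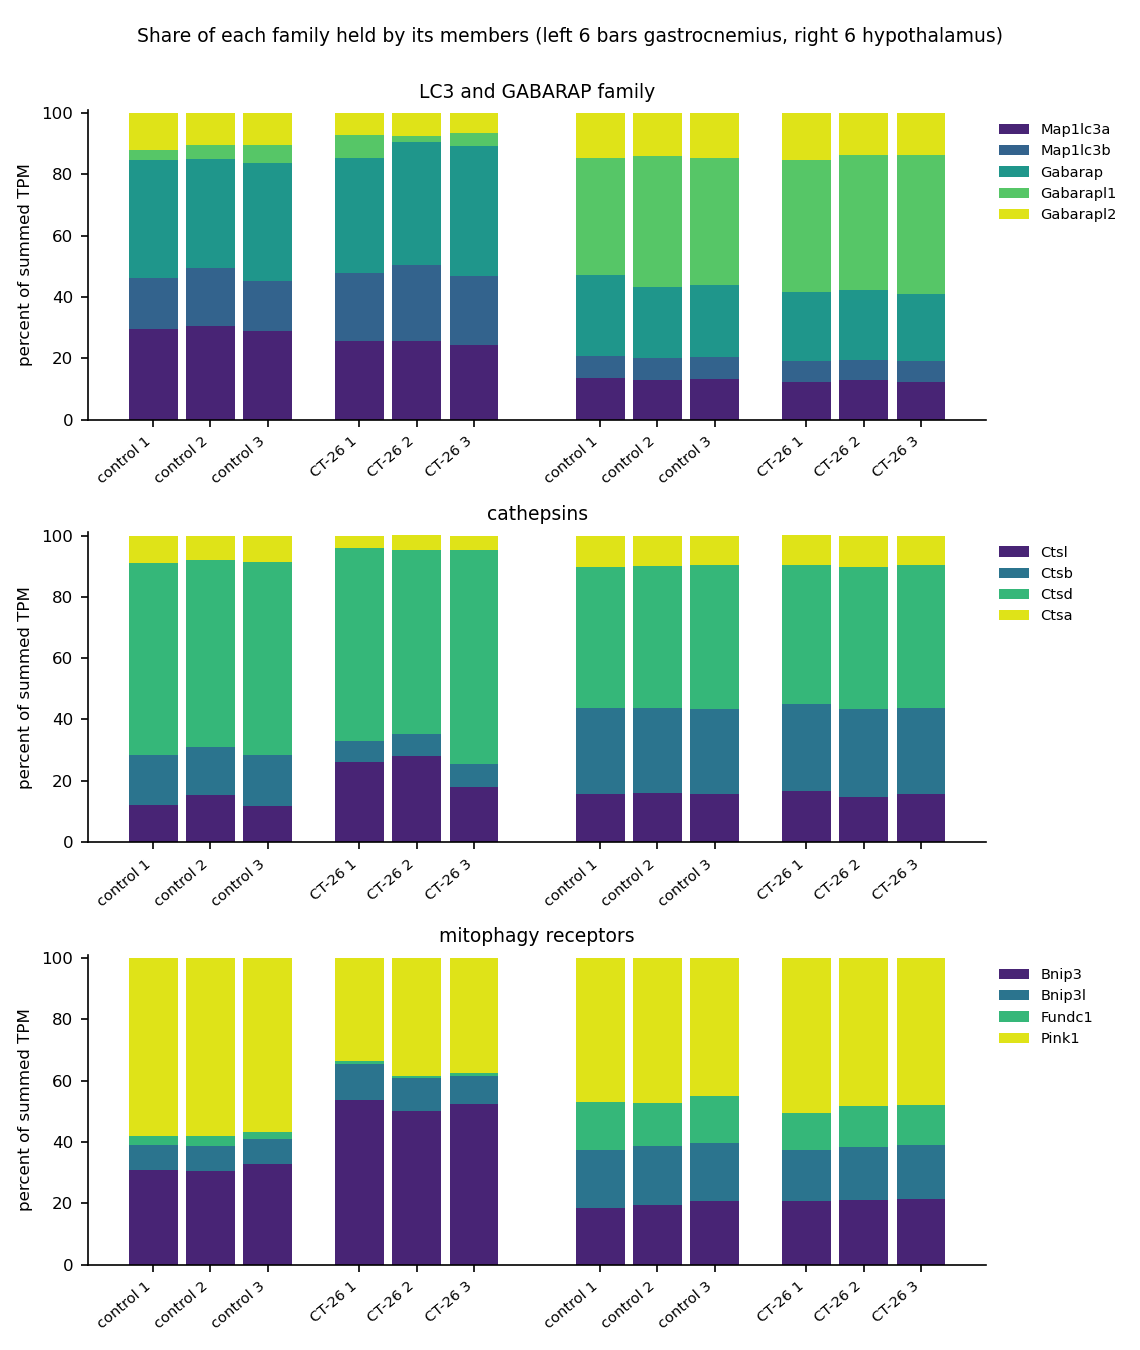
Percent of the summed TPM (y axis, from 0 to 100) held by each member of the LC3 and GABARAP family, the 4 cathepsins and the 4 mitophagy genes, with 1 bar per library, 6 of gastrocnemius and then 6 of hypothalamus. Bnip3 holds 50.2 to 53.6% of its group in CT-26 muscle against 30.4 to 32.7% in control muscle, and Gabarapl1 holds 38.3 to 45.4% of its family in the hypothalamus.

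Among the 19 members that rose, CT-26 mouse 1 had the highest value of the 3 CT-26 mice for 13 of them, and CT-26 mouse 3 the lowest for 10. Immune cells also hold much lysosomal RNA. In muscle 2 of the 10 macrophage markers rose (Lyz2 and Itgam), 0 fell, 7 were not called and 1 was not tested, while all 6 neutrophil markers tested rose. The summed levels of both lists spread widely among the CT-26 libraries, as given above, and their part in the rise of the members was not tested. Without CT-26 mouse 1, 15 members were called higher, and over all single omissions the number called higher ran from 14 to 19.

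The scaling between libraries bore on the muscle result. With library totals in place of TMM the median of all genes moved to 0.20, and with log2(TPM + 0.5) tested by limma to 0.28. Higher calls made up 51.7% of all calls under TMM, 70.4% under library totals and 81.5% under TPM. The members called higher then numbered 27 and 28, and those called lower 2 and 1. All 39 members had a larger log2 fold change with TPM than with TMM, by 0.24 to 0.63. The fall in Ulk2 was the 1 that was called on each scale. Altogether 15 of the 23 called members, 14 higher and Ulk2 lower, kept direction and call under every alternative tried.

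**Figure D4:**
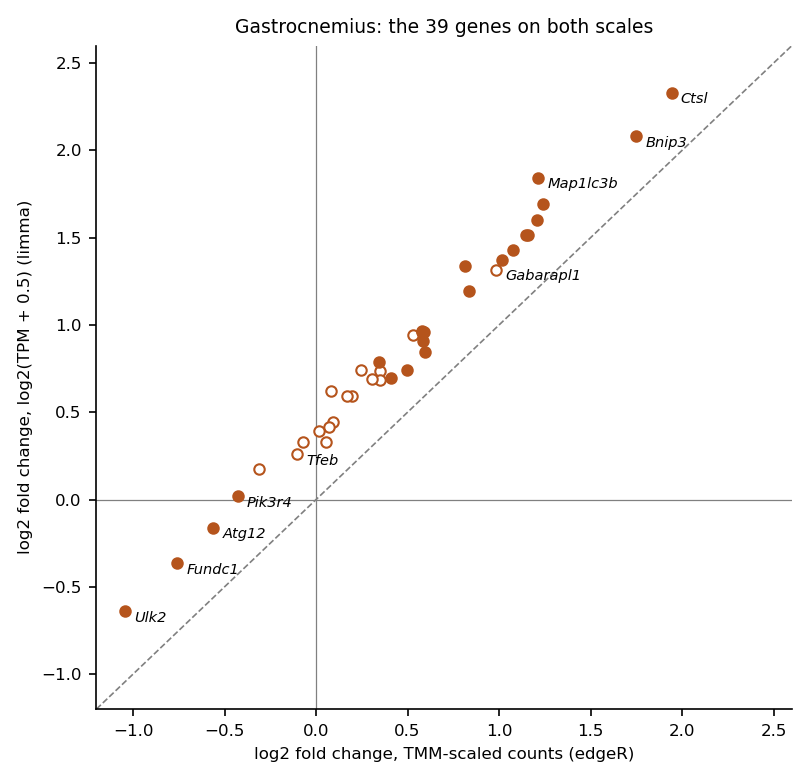
Log2 fold change in gastrocnemius of each of the 39 genes with TMM-scaled counts (x axis) and with log2(TPM + 0.5) (y axis), filled where called with TMM, with the line of equality dashed. All points lie above the line, and Pik3r4 crosses 0, from -0.43 to 0.02.

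The deposited tables also give a length for each gene that RSEM weights by the estimated shares of its isoforms. In the gastrocnemius, 7 of the 38 members with varying length (18.4%) had lengths that did not overlap between CT-26 and control, against 16.1% of all genes, a share near the background. In 2 of them the means differed by at least 5%, against 9.51% of all genes. The larger was Map1lc3b, at 1935.84, 2033.69 and 1663.41 bases in CT-26 muscle and 2224.43, 2209.08 and 2157.81 bases in control muscle. Its hypothalamic lengths were 2524.5 to 2561.82 bases in all 6 libraries, so the muscle estimates were the shorter ones in both groups. TPM divides by this length, and the log2 fold change of this gene was 1.84 on the TPM scale and 1.21 on the CPM scale. In the hypothalamus 3 of 38 members (7.89%) had lengths that did not overlap, against 13.7% of all genes, and none reached a 5% difference, against 5.89%.

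The second comparison asked the same of the hypothalamus, the brain region that governs feeding and energy use. There 2 of the 39 members rose, 0 fell and 37 were not called, and 9 had an unadjusted p under 0.05. Over all 17961 genes tested, 3.94% were called higher and 4.83% lower, against 5.13% and 0% of the members. The groups did not overlap for 11 members (28.2%), against 30.3% of all genes. The median log2 fold change was -0.005, and 36 of the 39 values lay within 0.2 of 0. The SE of the members was 0.04 to 0.11 here and 0.10 to 0.41 in muscle, so smaller differences could pass the test in the hypothalamus.

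Both called genes belong to mitophagy. Pink1 had 294.5, 265.3 and 264.6 CPM in CT-26 mice and 219.2, 239.2 and 226 CPM in controls (0.27 ± 0.06, adjusted p = 0.0194). Bnip3 had 69.24, 71 and 70.12 CPM against 54.16, 61.46 and 62.34 CPM (0.24 ± 0.06, adjusted p = 0.0325). In both genes all CT-26 libraries lay above all controls, by less than the muscle change of Bnip3. The calls were fragile: Pink1 was lost without CT-26 mouse 1 or control mouse 3 (adjusted p 0.0568 and 0.0623), and Bnip3 when any of 5 of the 6 libraries was left out. With TPM, or in the fit that shares 1 spread across tissues, neither was called.

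The nearest to a fall was Tfeb, named after its values were seen. It had 7.908, 8.253 and 7.34 CPM in CT-26 mice and 8.913, 10.93 and 10.93 CPM in controls, with no overlap, and a difference of -0.39 ± 0.11 (edgeR adjusted p = 0.0509). DESeq2 called it (adjusted p = 0.0475), as well as Lamp1 (adjusted p = 0.0388). Lamp1 had 309.8, 323.1 and 292.7 CPM in CT-26 mice and 355.8, 337.8 and 344.9 CPM in controls, also without overlap (-0.17 ± 0.05, edgeR adjusted p = 0.0746). Oligodendrocyte markers were lower in the same libraries (3 of 4 called), and their part in these values was not tested.

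Of the other roles in the hypothalamus, none had a called member. Gabarapl1, the most abundant member there by TPM, had 527.5, 531 and 521.2 CPM in CT-26 mice and 473.6, 487.8 and 515.8 CPM in controls (0.10 ± 0.05, adjusted p = 0.257). Gabarap had 175.7, 166.2 and 166.4 CPM against 183.4, 185.3 and 178.9 CPM (-0.11 ± 0.05, adjusted p = 0.177). Becn1 had 83.38, 90.57 and 88.59 CPM against 91, 85.92 and 90.22 CPM, and Rb1cc1 had 84.88, 92.91 and 98.85 CPM against 88.59, 96.29 and 92.22 CPM. The groups overlapped for both initiation genes. Among the conjugation genes Atg4b had 55.82, 54.89 and 54.12 CPM against 54.22, 53.19 and 58.05 CPM, and Atg3 34.78, 31.39 and 35.35 CPM against 34.84, 37.41 and 38.88 CPM. Sqstm1, at 644.4, 601.3 and 608.5 CPM against 601.2, 595.5 and 599.3 CPM, stood just above the controls (0.05 ± 0.05, adjusted p = 0.604), and Bnip3l had 90.46, 95.62 and 90.02 CPM against 89.51, 91.77 and 93.56 CPM (0.01 ± 0.05, adjusted p = 0.956). Ctsd had 413.3, 414 and 402.8 CPM against 403.4, 427.9 and 424.3 CPM (-0.03 ± 0.05, adjusted p = 0.749), in contrast to its rise in muscle of the same mice.

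Whether the responses differed between tissues was tested by the interaction term over all 12 libraries. It was called for 20 members, all of them among the 23 called in muscle: for 16 the response was higher in muscle and for 4 it was lower. Over all 18746 genes, 12.4% were called higher and 14.0% lower. The largest were Ctsl (1.88 ± 0.19, adjusted p = 3.3e-05), Bnip3 (1.49 ± 0.15, adjusted p = 2.8e-05), Map1lc3b (1.28 ± 0.14, adjusted p = 4.5e-05) and Gabarap (1.25 ± 0.15, adjusted p = 7.7e-05). Bnip3 therefore rose more in muscle than in the hypothalamus. Its hypothalamic difference in this 12-library fit was 0.25 and not called (edgeR adjusted p = 0.38). For Pink1 the difference between tissues was 0.03 ± 0.13 (adjusted p = 0.951), and it was not called under any alternative. With TMM the estimates in muscle (0.31, not called) and hypothalamus (0.27) were close in size. With TPM they were 0.69 in muscle, where Pink1 was then called, and 0.24 in the hypothalamus, where it was not. On the lower side stood Ulk2 (-1.03 ± 0.15, adjusted p = 0.000308), Fundc1 (-0.74 ± 0.14, adjusted p = 0.00172), Pik3r4 (-0.46 ± 0.11, adjusted p = 0.0105) and Atg12 (-0.40 ± 0.12, adjusted p = 0.0271). With the mouse as a block, since both tissues came from the same mice, 14 were called higher and 2 lower: Wipi2, Gabarapl2, Pik3r4 and Atg12 lost their calls. The differences of 13 members, Ulk2 among them, kept direction and call under every alternative.

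The levels of the genes in control mice placed these responses. The order of tissues depended on the scaling: with TMM, 23 members were called higher in control muscle than in control hypothalamus and 10 lower, while with library totals the numbers were 6 and 27. Over all genes 35.7% were called higher and 47.7% lower with TMM, against 59.0% and 25.6% of the members. With library totals all genes gave 15.7% and 72.4% and the members 15.4% and 69.2%, shares near the background. A single neuronal RNA, Bc1, made up 24.8 to 29.39% of hypothalamic TPM and at most 0.06% of muscle TPM. The muscle fibre markers summed to 80400 to 99080 CPM in control muscle and 15.45 to 21.35 CPM in control hypothalamus. The part of either in the order of tissues was not tested. Higher in muscle under every setting were 6 members: Tfeb, Bnip3, Wipi1, Optn, Pink1 and Ulk2. Tfeb had 30.8 ± 3.10 TPM in control muscle and 6.42 ± 1.02 TPM in control hypothalamus, and Bnip3 117.3 ± 5.50 against 50.41 ± 4.98 TPM (SD, n = 3). Lower in muscle under every setting were 7: Gabarapl1, Wipi2, Tfe3, Neu1, Atg4b, Pik3r4 and Fundc1. Gabarapl1 had 17.85 ± 5.32 TPM against 392.4 ± 34.3 TPM, and Tfe3 4.33 ± 0.776 against 21.47 ± 1.201 TPM. Tfeb and Tfe3, relatives that bind the same element, thus had opposite tissue orders. Gabarapl1 made up 38.3 to 45.4% of the LC3 and GABARAP family's TPM in the hypothalamus and 2.17 to 7.68% in muscle. In the hypothalamus the summed family TPM was 905.9 to 983.1 over all 6 libraries.

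Beyond the 39, 118 other genes of the pathway were listed in 7 groups, all of which passed the filter in both tissues. In the gastrocnemius 30 of them rose (25.4%), 7 fell (5.93%) and 81 were not called, with a median of 0.13. All genes gave 19.6% higher and 18.3% lower, so the share of risers was near the background. Of the 37 calls, 22 held under every alternative. The largest rise was in Retreg1, a receptor for the breakdown of endoplasmic reticulum, with 1299, 607.9 and 923.9 CPM in CT-26 mice and 110.7, 130 and 152.2 CPM in controls (2.85 ± 0.29, adjusted p = 0.000415). Its group, other selective receptors, had 7 of 17 higher and 0 lower. Tex264 (0.95 ± 0.12) and Ccpg1 (1.06 ± 0.14), known receptors for the same organelle, rose as well. The other initiation and phagophore genes had 6 of 14 higher and 0 lower, led by Zfyve1 (1.73 ± 0.21), which marks the membrane from which autophagosomes grow, with Uvrag (1.06 ± 0.15), a PIK3C3 partner, and Wdr45 (0.63 ± 0.12), a relative of Wipi2. Of the 5 other conjugation genes none was called, and 0 had an unadjusted p under 0.05.

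The next lists cover the late steps, to be read against 19.6% of all genes called higher and 18.3% lower. Of 13 autophagosome fusion genes, 5 rose and 0 fell. Vps16, a subunit of the tethering complex, rose by 0.99 ± 0.11, Rab7, the late endosome GTPase, by 0.69 ± 0.13, and Plekhm1, an adaptor between them, by 0.58 ± 0.16, a call lost when CT-26 mouse 1 or any one control mouse was left out. Of 16 V-ATPase subunits, the pump that acidifies the lysosome, 4 rose and 0 fell: Atp6v0c (0.78 ± 0.13), Atp6v1d (0.59 ± 0.10), Atp6v1h (1.504 ± 0.32) and Atp6v0d1 (0.58 ± 0.16), the last a call lost in 3 of 6 omissions of 1 library. Of 15 lysosomal signalling genes, the calcium channel Mcoln1 rose (0.57 ± 0.16) and Lamtor4, a subunit of the Ragulator complex, fell (-0.65 ± 0.19). The Mcoln1 call was lost without control mouse 1 or 2, and that of Lamtor4 without control mouse 1 or 3, with library totals and with TPM. The remaining 13 were not called.

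The other 38 hydrolases and membrane proteins of the lysosome split, with 7 higher, 6 lower and a median of -0.01. Gaa, the enzyme that breaks down glycogen in the lysosome, had 603.7, 483.5 and 448.4 CPM in CT-26 mice and 134.2, 175 and 145.9 CPM in controls (1.75 ± 0.17, adjusted p = 0.000404). The tetraspanin Cd63 rose by 1.37 ± 0.14. Arsb, a sulfatase that degrades glycosaminoglycans, had 2.118, 2.478 and 2.361 CPM in CT-26 mice and 6.536, 7.367 and 6.752 CPM in controls (-1.57 ± 0.16, adjusted p = 0.000402). The fibroblast and adipocyte markers were lower in the same muscle libraries (4 of 5 and 4 of 4 called), and their part in the falls was not tested.

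**Figure D5:**
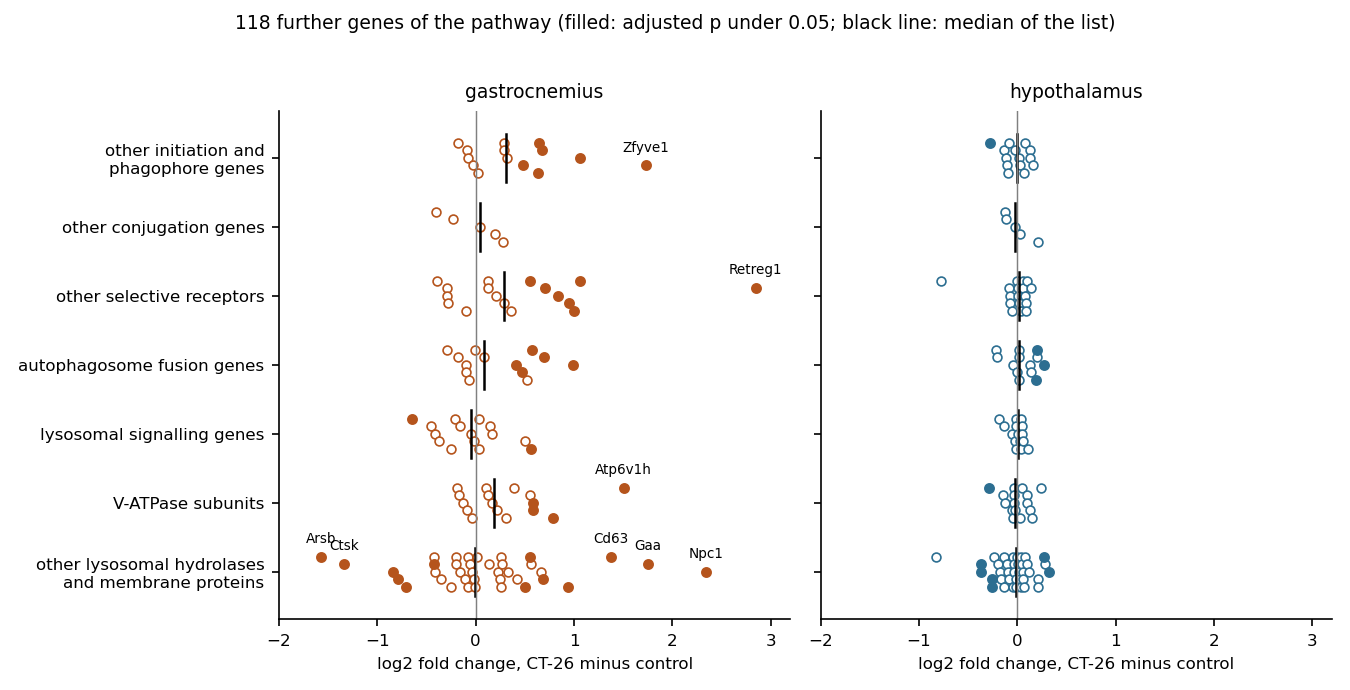
Log2 fold change (x axis, CT-26 minus control) of 118 further pathway genes in 7 lists, in gastrocnemius (left) and hypothalamus (right), filled where the adjusted p was under 0.05, with the median of each list as a black line. In muscle Retreg1 stands at 2.85 and Arsb at -1.57, while in the hypothalamus the called genes lie between -0.37 and 0.32.

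In the hypothalamus 5 of these 118 rose (4.24%), 6 fell (5.08%) and 107 were not called, against 3.94% and 4.83% of all genes, so the list sat at the background. None of the 11 calls held in the fit that shares 1 spread across tissues. The 3 risers of the fusion list were Stx17, the autophagosomal SNARE (0.28 ± 0.06), and Vps11 and Vps33a, subunits of the tethering complex (0.20 ± 0.04 and 0.19 ± 0.05). All 3 were lost with TPM, Vps11 and Vps33a also with the replicate block, and on omission of 1 library Stx17 and Vps33a were lost in 5 of 6 cases and Vps11 in 4. Atp6v0a2 of the V-ATPase (-0.29 ± 0.05) and Sh3glb1, a Beclin 1 partner (-0.28 ± 0.06), fell, both calls lost with TPM and without control mouse 2. Genes called in both tissues numbered 7, named after their values were seen. Ctsf, Vps11 and Vps33a were called higher in both, and Arsb lower in both, but the hypothalamic calls were lost on 2, 4, 5 and 4 of 6 omissions, in that order. In muscle the calls of Vps11 and Vps33a were lost on 5 and 4 of 6 omissions, while those of Ctsf and Arsb held on each. Npc1, which exports cholesterol from the lysosome, had 83.33, 39.61 and 39.75 CPM in CT-26 muscle against 9.384, 11.51 and 11.3 CPM in control muscle (2.34 ± 0.30). In the hypothalamus of the same mice it had 50.71, 50.75 and 51.47 CPM against 66.87, 70.09 and 60.56 CPM (-0.37 ± 0.06). The interaction term for Npc1 was 2.69 ± 0.32 (adjusted p = 9.4e-05). Hexa, a hydrolase of gangliosides, and Cd63, whose hypothalamic call was lost on 3 of 6 omissions, had the same pair of signs, with interaction terms of 0.91 ± 0.14 and 1.61 ± 0.15.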

How the data were processed

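RNA sequencing of 12 libraries (MGIEasy directional kit, 100 bp pairs) was used. The submitters' processing notes name GRCm38, RSEM 1.3.3, Trim Galore 0.6.6 and STAR 2.7.9a, in no stated order; the annotation release and the strand setting are not given in the sources used here. The deposited tables hold RSEM expected counts, TPM, FPKM (not used here) and isoform-weighted lengths in bases per gene. Identifiers were named from GENCODE M21, which named 52083 of 55416. Expected counts were rounded to whole numbers and each tissue was fitted on its 6 libraries with edgeR 4.0.16 in R 4.3.3 (filterByExpr, TMM, glmQLFit and glmQLFTest, Benjamini-Hochberg over all genes tested, calls under 0.05). The interaction and the control contrast came from 1 fit of all 12 libraries. Each SE was derived as the absolute log2 fold change divided by the square root of the glmQLFTest F statistic. Alternatives were library totals, DESeq2 1.42.0, no filter or at least 1 CPM in 3 libraries, limma 3.58.1 on log2(TPM + 0.5) of the deposited TPM, the 12-library fit, a replicate block and each library left out. The scripts were tested on simulated data. Replicate pairs differed by more than sampling noise, with 5.86 to 160.12 as the chi-square per gene. Same-mouse deviations in the 2 tissues correlated at -0.022 to 0.086; the pairing comes from the numbered mice in the labels.

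The members and lists were chosen with earlier results of these data known. In each tissue, every library's value is given for up to 3 called genes per role with the largest change and up to 2 not called with the highest TPM. For the difference between tissues up to 4 per direction are named, and from each other list up to 3 called genes with the smallest p. Where more than 3 genes of such a list are named, as for the V-ATPase, the rest were named after their values were seen.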

Additional observations from a re-analysis of the deposited data

Results flagged for a closer look

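The response to CT-26 differed between gastrocnemius and hypothalamus, by the interaction term, for 20 of the 39 genes. The log2 response was higher in muscle for Ctsl (1.88), Bnip3 (1.49), Map1lc3b (1.28), Gabarap (1.25), Bnip3l (1.22), Ctsd (1.16), Sqstm1 (1.15), Optn (1.08), Lamp2 (1.02), Map1lc3a (0.94), Atg7 (0.80), Lamp1 (0.74), Neu1 (0.59), Nbr1 (0.54), Wipi2 (0.45) and Gabarapl2 (0.36). It was lower in muscle for Ulk2 (-1.03), Fundc1 (-0.74), Pik3r4 (-0.46) and Atg12 (-0.40). Of the 7 other pathway genes called in both tissues, it was higher for Npc1 (2.69), Cd63 (1.61), Hexa (0.91) and Ctsf (0.40) and lower for Arsb (-1.34). The difference for Ctsf was not called with the mouse as a block, without a filter, or in 10 of 12 omissions of 1 library. Among the 39, Wipi2, Gabarapl2, Pik3r4 and Atg12 also lost their calls with the mouse as a block and without a filter. Gabarapl2 kept its call in 4 of 12 omissions and Atg12 in 7. With TPM, Pik3r4 and Atg12 turned sign and Fundc1 was not called. Nbr1 and Neu1 were not called without the muscle library of control mouse 1.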

How the results depend on the processing

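Every alternative was planned. Members called higher in muscle (19) numbered 18 to 28 under other settings and 14 to 19 with 1 library left out; those called lower (4) numbered 2 with library totals, 1 with TPM and 3 to 4 with 1 library left out. Pik3r4 turned sign with TPM in muscle (0.019) and for the difference between tissues (0.061), as did Atg12 for that difference (0.009). The 2 hypothalamic risers became 0 with TPM and in the 12-library fit and 0 to 1 with 1 library left out; DESeq2 called 2 lower, no filter 1, and omissions 0 to 1. Differences between tissues (16 higher, 4 lower) were 25 and 2 with library totals, 27 and 1 with TPM, 14 and 2 without a filter, 14 and 2 with the mouse as replicate block, and 13 to 20 and 3 to 4 over omissions. Control muscle against control hypothalamus (23 higher, 10 lower) gave 6 and 27 with library totals and 6 and 28 with TPM. Of the 118 other genes, 46 rose in muscle with library totals and with TPM (30 with TMM; 21 to 35 over omissions), and 18 fell in the 12-library fit, 2 with library totals and 1 with TPM (7; 2 to 8). In the hypothalamus 0 rose in the 12-library fit and with TPM (5; 0 to 3), and 0 fell in the 12-library fit and 2 with TPM (6; 2 to 7). Lengths differing by at least 5% without overlap numbered 2 in muscle and 0 in the hypothalamus; with 1 library left out, 10 to 16 and 5 to 11 of 38 did not overlap, where all genes gave 24.7 to 26.8% and 22.0 to 26.8%.

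Within a tissue, CT-26 and control libraries of the same number came from different mice. Same-number correlations of their deviations were -0.057 to 0.259 in muscle and -0.103 to 0 in the hypothalamus. In muscle, numbers 2 and 3 correlated at 0.182 and 0.259 with their own number and at -0.249 and -0.228 when crossed. The source of that pattern was not tested. A replicate block within each tissue called 18 members higher and 4 lower in muscle, 2 and 0 in the hypothalamus, and 3 of the other genes higher in the hypothalamus. The main limits are 3 mice per group, the scaling between libraries that differ in composition, a marker shift in CT-26 muscle, and low levels (Atg10 at 2.27 CPM in the lower group).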
